A study of Mus musculus with 2 samples.

Results

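Transcripts of 9 genes that make, break down, take up, bind or answer to retinoic acid were followed in cultured primary mouse brain pericytes (PCs). They were *Rdh10*, *Aldh1a1*, *Aldh1a2* and *Aldh1a3* (synthesis), *Cyp26b1* (breakdown), *Stra6* (uptake), *Crabp1* and *Crabp2* (binding) and *Rarb* (target). These 9 of the 31053 genes listed in each library were chosen by symbol, after earlier results on the same libraries had shown that several of them differed between the passages. The difference between the passages is therefore given as a description.

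The cells were sequenced in droplets from their 3′ ends, with 1 library of a culture at passage 5 (PC5) and 1 library of a culture at passage 20 (PC20). Both cultures were wild type C57BL/6N cells grown without treatment, each started from the pooled brains of 6 female mice of 6 to 8 weeks. By the paper's methods PC5 and PC20 came from separate isolations, while the deposited description gives only 1, so a difference of passage cannot be told apart from one of isolation. Cells taken directly from adult or embryonic brains were not analysed here. Cells were kept if they showed more than 1000 genes and if mitochondrial genes took under 20% of their UMIs (unique molecular identifiers, 1 for each RNA molecule captured), which left 9950 of 10629 barcodes in PC5 and 4749 of 4884 in PC20.

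The median cell held 21700 UMIs in PC5 and 33424 in PC20. The libraries shared 20 barcodes, and leaving these out moved none of the 9 log2 ratios or the shares of cells by more than its counting error. Levels are given as CPM, the UMIs of a gene per 1000000 UMIs of the kept cells. Shares of cells with a UMI rest on cells thinned to one common depth (48.4% of the UMIs of the median PC5 cell and 31.4% of the median PC20 cell). This left 8847 cells in PC5 and 4474 in PC20, with 1103 and 275 shallower cells set aside. All intervals are exact 95% intervals for counting error alone, and no test between the passages was possible with 1 library each.

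The summed level of the canonical PC markers was lower in PC20 than in PC5. *Pdgfrb*, the receptor that recruits PCs to vessels, held 44.6 CPM in PC5 and 5.43 CPM in PC20. The 6 PC markers summed to 53.9 CPM in PC5 and 8.53 CPM in PC20, with *Rgs5* and *Kcnj8* at 0 UMIs in PC20 and *Abcc9* at 1 UMI in each library. *Anpep* went the other way, with 1.93 CPM in PC5 and 3.00 CPM in PC20. The 6 fibroblast markers, mostly collagens, summed to 3614 CPM in PC5 and 107 CPM in PC20. In PC20 this was nearly all *Col3a1* (101 CPM), with *Col1a1* at 6.04 CPM, and the other 4 were nearly absent. *Col1a2* held 1737 CPM in PC5 and 0.0471 CPM in PC20, *Pdgfra* 88.6 and 0.131 CPM, and *Dcn* 51.3 and 0.167 CPM. *Lum* had 796 UMIs in PC5 and 0 UMIs in PC20. The 7 meningeal markers summed to 241 and 26.1 CPM. In PC5 this was mostly *Foxc1* (108 CPM), *Zic1* (68.0 CPM) and *Foxd1* (59.7 CPM), and in PC20 nearly all *Foxc1* (25.9 CPM). *Slc6a13*, *Dpp4* and *Prg4* held only 0.390, 0.637 and 0.318 CPM in PC5. The 5 endothelial markers summed to 181 CPM in PC5, mostly *Cdh5* (168 CPM), and 0.262 CPM in PC20. The 4 neural progenitor markers summed to 66.4 CPM in PC5 and 139 CPM in PC20, but did not move together. *Sox2* and *Pax6*, transcription factors of neural progenitors, held 0.430 and 0.220 CPM in PC5 against 66.8 and 25.0 CPM in PC20. *Nes* went the other way, with 65.1 and 47.5 CPM, as did *Fabp7*, with 132 UMIs in PC5 and 0 UMIs in PC20. The libraries thus differed widely in cell type markers as well as in passage, and the part of this in the values below was not tested. A lower level in a library can reflect fewer expressing cells or less RNA in each, and the shares of cells are given for that reason.

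Retinoic acid is made from vitamin A in a pair of steps. Retinol dehydrogenases such as RDH10 oxidise retinol to retinal, and the retinaldehyde dehydrogenases of the ALDH1A family oxidise retinal to retinoic acid. STRA6 is a membrane receptor that carries retinol into the cell from its blood carrier, CRABP1 and CRABP2 bind retinoic acid inside the cell, and CYP26 enzymes oxidise it for disposal. Retinoic acid acts by binding nuclear receptors, and the receptor gene *Rarb* is itself a classic target. In the developing brain the meninges are a known source of retinoic acid.

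Of the 9 genes, 5 lay above 1 in log2 ratio (log2 of PC5 CPM over PC20 CPM), 2 lay below -1 and 2 lay between. All 9 were detected in 1% or more of cells in PC5 or PC20. Among all 13539 genes with that detection, 22.3% lay above 1 and 20.0% lay below -1, so that ratios of this size were common in these libraries. The median log2 ratio was 1.57 over the 9 genes and 0.03 over all genes.

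**Figure D1:**
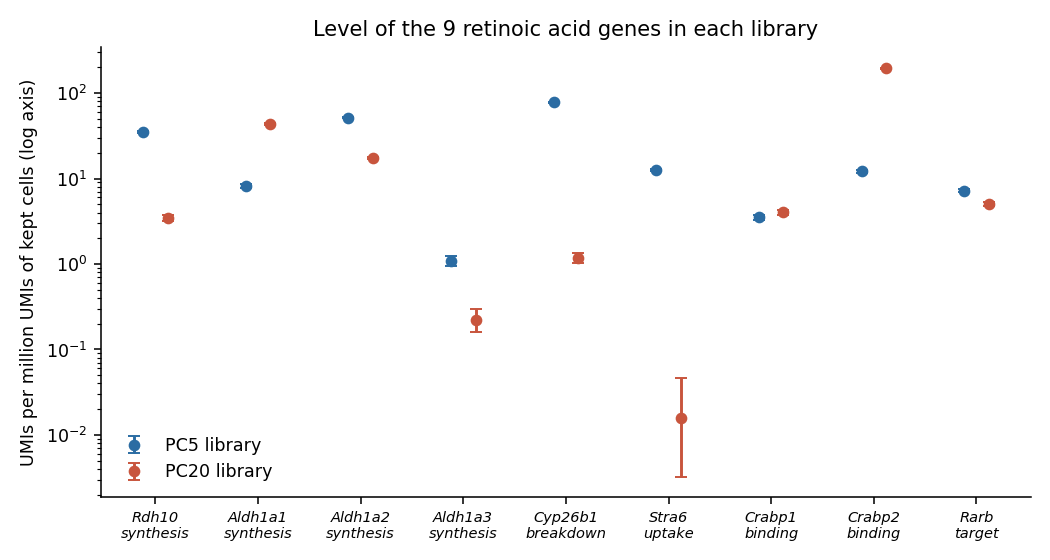
CPM (log axis) for each gene in the PC5 library (blue) and the PC20 library (red), with 95% exact Poisson intervals as bars. *Cyp26b1* and *Stra6* stand far higher in PC5, *Aldh1a1* and *Crabp2* stand higher in PC20, and *Crabp1* and *Rarb* lie close together.

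The synthesis genes did not move as a group. *Rdh10* held 34.9 CPM in PC5 and 3.42 CPM in PC20 (log2 ratio 3.35, 3.23 to 3.47). A *Rdh10* UMI was seen in 25.9% of thinned PC5 cells and 3.60% of thinned PC20 cells (39.3% and 11.9% before thinning). *Aldh1a2*, the main retinoic acid synthase of the embryo, held 51.4 CPM in PC5 and 17.3 CPM in PC20 (log2 ratio 1.57, 1.51 to 1.62). Its share of cells was 27.3% in PC5 and 17.8% in PC20 after thinning. Before thinning the order of the shares was the other way, at 37.0% and 44.3%, which goes against the CPM, so no order is read from the unthinned shares.

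*Aldh1a1* ran opposite to *Aldh1a2*. It held 8.20 CPM in PC5 and 43.3 CPM in PC20 (log2 ratio -2.40, -2.47 to -2.33). Its UMIs were seen in 6.96% of thinned PC5 cells and 27.6% of thinned PC20 cells (11.4% and 51.1% before thinning). *Aldh1a3* was scarce, with 241 UMIs (1.08 CPM) in PC5 and 42 UMIs (0.220 CPM) in PC20 (log2 ratio 2.30, 1.82 to 2.81). It was seen in 1.27% and 0.224% of thinned cells. For comparison, 10 genes of neurons, glia, immune and blood cells were read at the same common depth (medians before thinning were 21700 and 33424 UMIs). The most often seen of these 10 genes reached 0.384% of thinned cells in PC5 (*Csf1r*) and 0.0224% in PC20. These genes are hardly made in the culture, so they do not give the free RNA level of genes that it does make. *Aldh1a3* in PC20 rested on 10 thinned cells.

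The breakdown gene *Cyp26b1* differed more. It held 17488 UMIs (78.4 CPM) in PC5 and 226 UMIs (1.18 CPM) in PC20 (log2 ratio 6.05, 5.86 to 6.25). A *Cyp26b1* UMI was found in 33.6% of thinned PC5 cells and in 0.983% of thinned PC20 cells (43.5% and 2.25% before thinning). In PC20 the transcript was held by 107 cells, of which 78 had a single UMI and 12 had 5 or more. Those 12 cells held 101 of the 226 UMIs, or 44.7%. The other CYP26 genes were nearly absent: *Cyp26a1* had 0 UMIs in PC5 and 20 UMIs in PC20, and *Cyp26c1* had 1 UMI in PC5 and 0 in PC20. With 3 UMIs taken as the limit that a count of 0 allows, these levels could be up to 0.0134 CPM in PC5 and 0.0157 CPM in PC20 (0.0165 and 0.0193 CPM by the exact interval).

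The uptake receptor *Stra6* was close to absent from PC20. It held 2816 UMIs (12.6 CPM) in PC5 and 3 UMIs (0.0157 CPM) in PC20 (log2 ratio 9.65, 8.10 to 11.93). It was seen in 9.55% of thinned PC5 cells and in 1 thinned PC20 cell (0.0224%). Before thinning the shares were 15.4% and 0.0632%.

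The binding proteins split. *Crabp2*, which hands retinoic acid to its nuclear receptor, held 2720 UMIs (12.2 CPM) in PC5 and 37358 UMIs (195 CPM) in PC20 (log2 ratio -4.00, -4.06 to -3.95). It was seen in 10.0% of thinned PC5 cells and 81.3% of thinned PC20 cells (16.9% and 93.9% before thinning). *Crabp1* held 788 UMIs (3.53 CPM) in PC5 and 770 UMIs (4.03 CPM) in PC20 (log2 ratio -0.19, -0.33 to -0.04). This small difference turned around when cells were weighted equally (0.13) and when cells with an *Mki67* or *Top2a* UMI were left out (0.34), so no direction is given for *Crabp1*. Its UMIs were seen in 1.89% of thinned PC5 cells and 3.29% of thinned PC20 cells.

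The target gene *Rarb*, which encodes the retinoic acid receptor beta, held 1612 UMIs (7.23 CPM) in PC5 and 960 UMIs (5.02 CPM) in PC20 (log2 ratio 0.52, 0.41 to 0.64). It was seen in 7.15% of thinned PC5 cells and 4.65% of thinned PC20 cells (12.5% and 13.8% before thinning). The other retinoic acid receptors were as plentiful or more so in PC20. *Rara* held 25.6 and 26.8 CPM, and *Rarg* held 12.5 CPM in PC5 and 29.1 CPM in PC20 (log2 ratio -1.22, -1.28 to -1.15).

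The promoter of *Rarb* is shown because it carries the element through which this gene is known to answer to retinoic acid. Retinoic acid receptors bind pairs of the half-sites AGGTCA or GGGTCA or AGTTCA or GGTTCA in direct repeat, and both strands were searched for such pairs with 1, 2 or 5 bases between them. RefSeq promoter windows on GRCm38.p6 (250 bases before to 50 after a transcript start) were at hand for 6 of the 9 genes and 43 of 57 other pathway genes. A repeat with a 5 base spacer was held by 32 of all 32851 windows (0.0974%), with the *Rarb* window the only match among the 9 genes and the window of *Cyp26a1* the only match among the others. Repeats with 1 or 2 bases between the half-sites were held by 0.222% and 0.268% of windows, by none of the 6 genes with a window and by 1 other pathway gene (*Bco1*, 1 base between). The bases upstream of each start are given 5′ to 3′ on the strand of the gene, with the repeat in capitals. *Rarb* lies at chr14:16575477-16575726 on the minus strand, at a start inside the annotated gene, and *Cyp26a1* at chr19:37697558-37697807 on the plus strand, where the repeat reads on the opposite strand.
Rarb: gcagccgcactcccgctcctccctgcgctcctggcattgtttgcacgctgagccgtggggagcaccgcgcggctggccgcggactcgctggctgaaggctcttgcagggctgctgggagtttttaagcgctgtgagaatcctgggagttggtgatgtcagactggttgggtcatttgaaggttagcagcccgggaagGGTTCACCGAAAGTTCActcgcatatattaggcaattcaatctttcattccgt
Cyp26a1: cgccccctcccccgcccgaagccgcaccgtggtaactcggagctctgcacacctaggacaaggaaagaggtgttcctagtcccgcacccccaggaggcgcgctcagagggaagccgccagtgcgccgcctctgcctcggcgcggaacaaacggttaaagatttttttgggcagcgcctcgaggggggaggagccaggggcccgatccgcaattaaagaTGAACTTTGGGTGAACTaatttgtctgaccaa
In *Rarb* the repeat reads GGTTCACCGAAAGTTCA from -53 to -37 relative to the start, and in *Cyp26a1* it reads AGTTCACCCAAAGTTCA on the opposite strand from -32 to -16. *Cyp26b1*, *Stra6*, *Crabp1*, *Aldh1a1* and *Aldh1a2* held no such letters in their windows, which says nothing of elements elsewhere. Of these 2 genes with the repeat, *Rarb* was seen in both libraries and *Cyp26a1* rested on 20 UMIs in PC20.

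The rest of the pathway was described from 57 further genes of retinoid synthesis, breakdown, storage, transport, receptors, coregulators and known targets. Of these, 37 were detected in 1% or more of cells in either library, 12 of them lay above 1 in log2 ratio, 5 lay below -1 and 20 lay between, with a median of 0.34. These are 12 and 5 of 37 genes beside the 22.3% and 20.0% of all genes.

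Among the other synthesis genes 2 of 10 lay above 1 and 2 below -1, beside the 22.3% and 20.0% of all genes. *Adh7*, an alcohol dehydrogenase that oxidises retinol, held 4 UMIs in PC5 and 7493 UMIs (39.2 CPM) in PC20 (log2 ratio -11.09, -12.97 to -9.74), and was seen in 31.0% of thinned PC20 cells. *Dhrs3*, a reductase that turns retinal back to retinol and is itself a known retinoic acid target, held 4.30 CPM in PC5 and 18.2 CPM in PC20 (log2 ratio -2.08, -2.19 to -1.98). *Rdh11*, a retinal reductase, held 66.3 CPM in PC5 and 22.2 CPM in PC20 (log2 ratio 1.58, 1.53 to 1.63). *Bco2*, which cleaves carotenoids, was scarce, with 102 UMIs in PC5 and 6 UMIs in PC20 (log2 ratio 3.86, 2.69 to 5.34). *Rdh10* and *Adh7* can both act on retinol, and their levels were placed in opposite libraries.

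Among the other transport genes, *Fabp5*, a fatty acid carrier that can also bind retinoic acid, held 202 and 176 CPM. Of the enzymes that store retinol as esters, *Lrat* had 0 UMIs in both libraries, and *Dgat1* held 5.06 and 5.16 CPM.

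Among receptors and coregulators, *Rxra*, a partner receptor, held 15.7 CPM in PC5 and 7.19 CPM in PC20 (log2 ratio 1.13, 1.03 to 1.22). *Rxrb*, of the same family, went the other way, with 14.2 CPM in PC5 and 18.3 CPM in PC20 (log2 ratio -0.36, -0.43 to -0.29). The coactivator *Ncoa1* lay the other way from *Rxra*, with 7.30 and 18.0 CPM and a log2 ratio of -1.30 (-1.39 to -1.22).

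Of 10 other target genes tested, 6 lay above 1, 1 lay below -1 and 3 lay between, beside the 22.3% and 20.0% of all genes. *Tgm2*, a transglutaminase, held 50.8 CPM in PC5 and 16.6 CPM in PC20. The orphan receptors *Nr2f1* and *Nr2f2* held 204 and 224 CPM in PC5 and 94.5 and 79.4 CPM in PC20. *Foxc1*, a transcription factor that is also in the list of meningeal markers, held 108 and 25.9 CPM. *Rarres1* was scarcer, with 334 UMIs in PC5 and 12 UMIs in PC20. *Bhlhe40* was the target that lay below -1, with 35.4 CPM in PC5 and 85.1 CPM in PC20. *Meis1*, *Meis2* and *Rai14* lay between, with log2 ratios of -0.45, 0.48 and 0.10. The known targets *Rarb* (0.52) and *Dhrs3* (-2.08) are among those counted in other lists, so the 10 genes are not a full set of targets. Whether genes such as *Stra6* (9.65), *Cyp26b1* (6.05) and *Crabp2* (-4.00) are targets too was not tested.

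**Figure D2:**
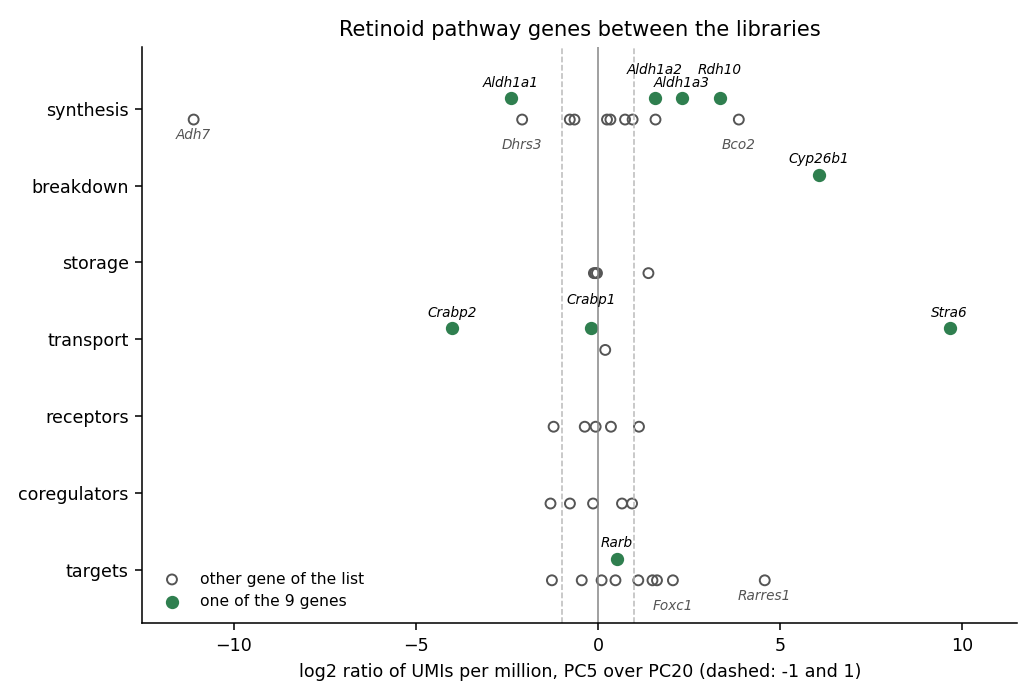
Log2 ratio of PC5 over PC20 CPM (horizontal axis, dashed lines at -1 and 1) for the 9 genes (filled) and the other tested genes that are reported here (open), in rows by list, with *Stra6*, *Crabp1* and *Crabp2* in the transport row. Genes of both signs stand in most rows, with *Adh7* at -11.09 and *Stra6* at 9.65 the ends of the range.

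Within PC5 the genes were spread unevenly over the cells. Cells of both libraries were clustered together, which gave 15 clusters, 9 mainly from PC5 and 6 mainly from PC20, and each is described by its own library's cells. The clustering used 8 of the 9 genes among its 2000 variable genes, so the levels by cluster are a description. No cluster was given a cell type.

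*Aldh1a2* was highest in cluster 3 of PC5 (1292 cells), whose leading genes were *Trf*, *Il33*, *Dcn*, *Bmp7* and *Mmp3*. It held 165 CPM there against 19.5 to 75.2 CPM in the other PC5 clusters, and was seen in 60.4% of the thinned cells of the cluster. *Rdh10* (58.8 CPM) and *Rarb* (18.6 CPM) were also highest in that cluster, and *Dhrs3* was too, at 13.9 CPM. *Cyp26b1* was low there, at 35.3 CPM. Over all PC5 cells the sum of the meningeal markers was mostly *Foxc1*, *Zic1* and *Foxd1*. The meningeal markers summed to 295 CPM in cluster 3, against 251 and 256 CPM in clusters 0 and 1, and the fibroblast markers to 4171 CPM. The endothelial markers summed to 303 CPM there, against 33.4 to 197 CPM in the other PC5 clusters.

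*Cyp26b1* was highest in clusters 1 and 0, at 96.9 and 96.6 CPM. Cluster 1 (2076 cells) was led by the mitotic genes *Nusap1*, *Aspm* and *Top2a*, and cluster 0 (2707 cells) by *Stmn2*, *Slc7a11* and *Krt19*. *Aldh1a2* held 22.5 and 32.5 CPM in them and *Rarb* 4.42 and 4.11 CPM.

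*Stra6* was itself the leading gene of cluster 7 of PC5 (854 cells), beside *Col6a3*, *Nrep*, *Postn* and *Tnc*. It held 56.6 CPM there and 2.49 to 17.5 CPM in the other PC5 clusters, and was seen in 37.1% of the thinned cells. *Crabp1* was highest in the same cluster, at 19.5 CPM, and *Rarb* held 11.2 CPM. *Cyp26b1* was as low as in cluster 3, at 32.5 CPM. The fibroblast markers summed to 5352 CPM in cluster 7, more than in any other cluster.

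*Aldh1a1* had a different place within PC5. It held 43.6 CPM in cluster 14, of only 83 cells led by *Mt3*, *Atf3* and *Igfbp2*. The neural progenitor markers summed to 144 CPM there, against 47.3 to 93.2 CPM in the other PC5 clusters. The astrocyte markers were highest there as well, at 222 CPM against 53.4 to 185 CPM. Over all PC5 cells the neural progenitor sum (66.4 CPM) was nearly all *Nes* (65.1 CPM), and single markers were not read in cluster 14. The *Aldh1a1* level of cluster 14 too rested on the clustering, since the highest PC5 cluster held 26.5 to 27.7 CPM under 3 of 4 other settings. *Aldh1a1* held 27.7 CPM in cluster 6 (1155 cells, with *Mgp* and *Chst15* among its leading genes) and 2.77 CPM in cluster 3. Cluster 6 also held *Aldh1a2* (75.2 CPM) and *Cyp26b1* (88.4 CPM), and had the lowest *Crabp2* of the PC5 clusters, at 2.96 CPM. Its *Rarb* was the highest of PC5 after cluster 3, at 12.6 CPM, so *Rarb* and *Cyp26b1* were both high there. These are levels of the whole cluster, and genes seen in the same cells are compared below.

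In PC20 the clusters lay closer together in *Aldh1a2*, which ranged from 11.8 to 23.7 CPM over the 6 of them. *Aldh1a1* ranged from 27.5 to 63.6 CPM and *Crabp2* from 114 to 249 CPM. The highest *Aldh1a1* level rested on the clustering, with 119 CPM at resolution 1.2 and 116 CPM without regression. The highest *Crabp2* and *Aldh1a1* were both in cluster 2 (1624 cells). Cluster 11 (331 cells, with *Bgn* and *Ckb* among its leading genes) had the highest *Rarb* of PC20, at 13.3 CPM against 2.21 to 6.86 CPM, and the highest *Cyp26b1*, at 3.15 CPM. It held 28 of the 107 PC20 cells with *Cyp26b1*. Clusters 10 of PC5 and 12 of PC20 were shallow, with median cells of 5671 and 6749 UMIs.

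**Figure D3:**
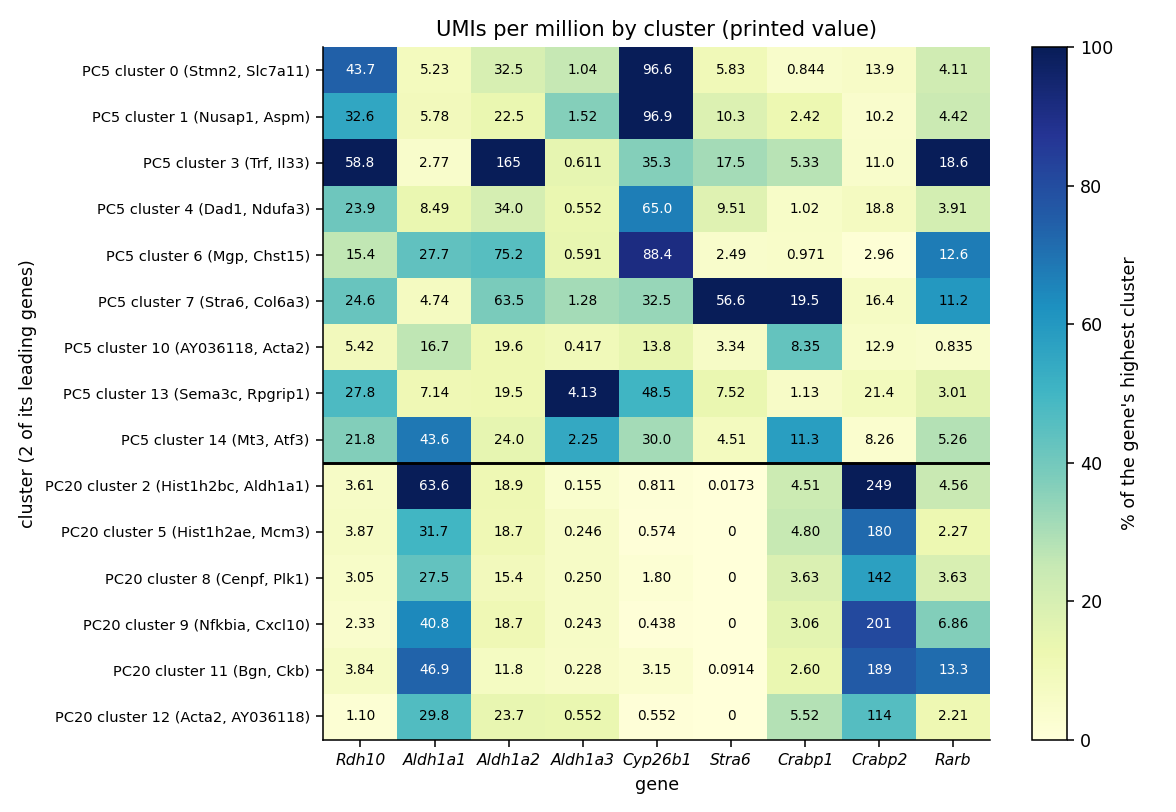
CPM of each gene (columns) in each cluster (rows, with 2 of the leading genes of the cluster), PC5 clusters above the line and PC20 clusters below, with colour giving the percentage of the gene's highest cluster. *Aldh1a2* and *Rarb* peak in cluster 3, *Stra6* and *Crabp1* in cluster 7 and *Crabp2* in the PC20 clusters.

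Synthase and breakdown transcripts were compared in the same cells. A UMI of any *Aldh1a* gene was seen in 33.9% of thinned PC5 cells and 40.8% of thinned PC20 cells. In PC5, 23.5% of cells had an *Aldh1a* UMI without *Cyp26b1*, 23.2% had *Cyp26b1* without *Aldh1a*, 10.4% had both and 42.9% had neither. The 919 cells with both compare with 1008 from the product of the shares, a ratio of 0.912 (0.854 to 0.973). The ALDH1A genes differed in this, since *Aldh1a2* was seen with *Cyp26b1* in 692 cells against 812 from the product (ratio 0.853, 0.790 to 0.919) and *Aldh1a1* in 257 cells against 207 (ratio 1.24, 1.09 to 1.40). In PC20 the same classes held 40.3%, 0.536%, 0.447% and 58.7%, and the 20 cells with both compare with 17.9 from the product (ratio 1.11, 0.681 to 1.72). A cell without a UMI may still have held the transcript, since thinned cells carry few molecules of any of these genes.

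**Figure D4:**
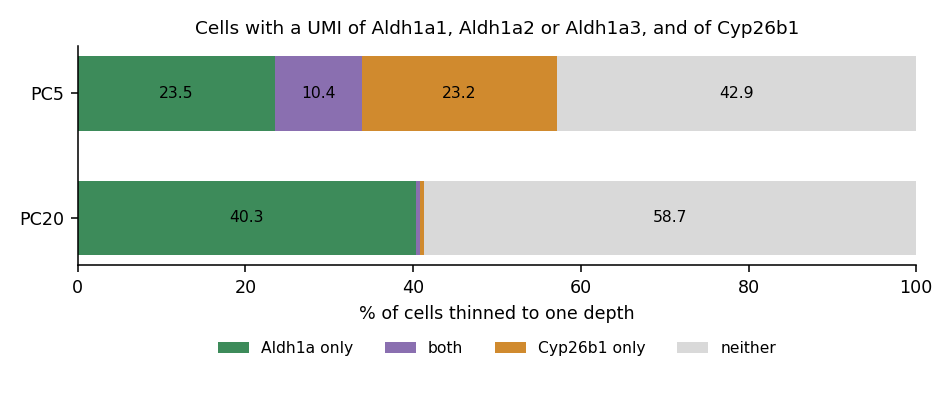
Percentage of cells thinned to one depth (horizontal axis) with a UMI of *Aldh1a1*, *Aldh1a2* or *Aldh1a3* alone, of *Cyp26b1* alone, of both or of neither, in PC5 and PC20. Cells with *Cyp26b1* make up 2 segments of the PC5 bar (10.4% and 23.2%) and nearly vanish from the PC20 bar.

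The spread over cells differed by gene as well. For *Aldh1a2* UMIs in thinned PC5 cells the variance was 3.08 times the mean, where a ratio of 1 is what random sampling from equal cells gives. For *Aldh1a2* in PC20 the ratio of variance to mean was 1.02. For *Cyp26b1* in PC5 the ratio was 3.77 and 3.92% of thinned cells held 5 or more UMIs, with 80 UMIs in the highest cell before thinning. *Crabp1* in PC5 had the largest ratio, 5.19, with 18 thinned cells at 4 UMIs or more and 30 UMIs in the highest cell before thinning. *Crabp2* in PC20 had a ratio of 1.65 and *Aldh1a1* in PC20 a ratio of 1.84.

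Rising *Aldh1a2* in PC5 cells went with more *Rarb* and, over all clusters together, with less *Cyp26b1*. The steps below were not taken within clusters. There *Aldh1a2* with *Cyp26b1* came near the product of the shares (ratio 0.942), and *Aldh1a2* with *Rarb* gave 1.31. *Rarb* was seen in 5.29% (4.75 to 5.86) of thinned PC5 cells without an *Aldh1a2* UMI, 8.60% (7.06 to 10.4) of cells with 1 UMI, 12.9% (10.7 to 15.4) of cells with 2 to 3 and 20.2% (16.5 to 24.3) of the 430 cells with 4 or more. *Dhrs3* went from 2.46% to 6.47%, 10.3% and 14.7% over the same steps. *Cyp26b1* went the other way, from 35.5% (34.3 to 36.6) to 31.5%, 26.2% and 25.3% (21.3 to 29.7). *Rdh10* rose from 23.9% of cells without *Aldh1a2* to 33.0% of cells with 4 or more UMIs, and *Stra6* from 7.93% to 16.3%.

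In PC20 the shares changed little over these steps at this depth. The variance of *Aldh1a2* UMIs there was 1.02 times the mean, close to random sampling from equal cells. Its steps therefore hardly sort PC20 cells by level, and whether *Rarb* or *Dhrs3* goes with *Aldh1a2* in PC20 could not be read from them. *Rarb* was seen in 4.62%, 4.78% and 4.60% of cells with 0, 1 and 2 to 3 *Aldh1a2* UMIs, the last of 87 cells, and 0 cells had 4 or more. *Dhrs3* was seen in 16.8%, 14.5% and 13.8% of them. Over 0, 1, 2 to 3 and 4 or more *Aldh1a1* UMIs in PC20, neither *Dhrs3* nor *Rarb* rose evenly. *Dhrs3* was seen in 16.0% (14.7 to 17.3), 15.0%, 20.7% and 28.4% (18.5 to 40.1) of cells. *Rarb* was seen in 4.20%, 6.11%, 4.96% and 6.76% (2.23 to 15.1). The last step held 74 cells, 5 of them with *Rarb*. *Dhrs3* was picked for these comparisons after its values were seen.

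**Figure D5:**
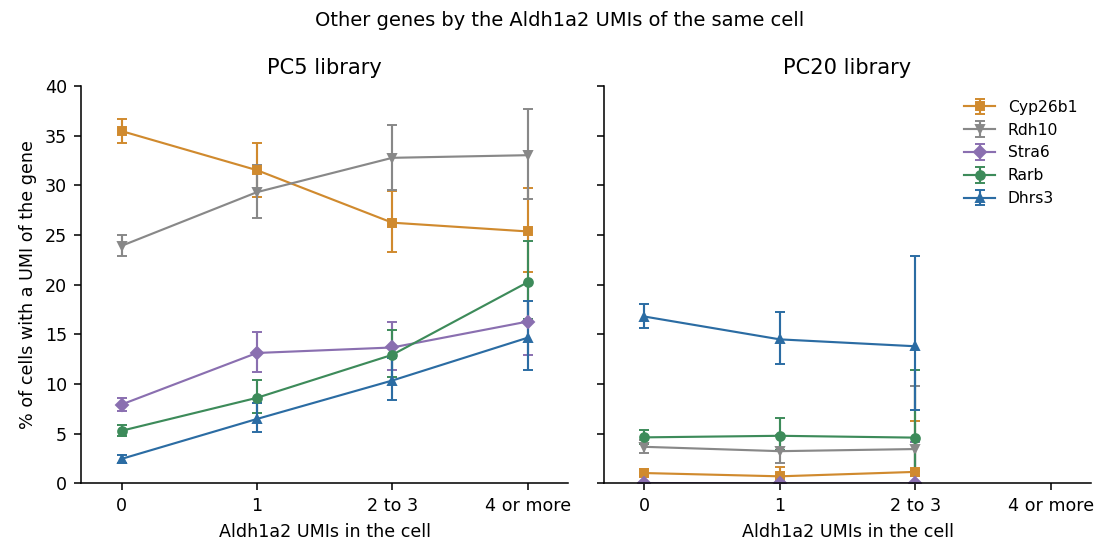
Percentage of thinned cells with a UMI of *Cyp26b1*, *Rdh10*, *Stra6*, *Rarb* or *Dhrs3* (vertical axis) by the number of *Aldh1a2* UMIs in the same cell (horizontal axis), in PC5 (left) and PC20 (right), with 95% Clopper-Pearson intervals. In PC5 *Rarb*, *Dhrs3*, *Stra6* and *Rdh10* climb and *Cyp26b1* falls. The PC20 lines change little and have no cells at 4 or more, but *Aldh1a2* counts so near random sampling can hardly show a link.

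Over all pairs of the 9 genes in PC5, 9 of 36 pairs were seen together more often than the product of their shares, with counting intervals above 1. Another 10 of 36 were seen together less often. Pairs of other genes were not counted in this way, so these counts are not read as a trait of the 9 genes. The pair furthest above was *Stra6* with *Crabp1*, seen together in 47 cells against 16.0 from the product, a ratio of 2.95 (2.17 to 3.92). *Aldh1a2* with *Rarb* gave 293 cells against 173, a ratio of 1.69 (1.51 to 1.90), and *Stra6* with *Rarb* a ratio of 1.85 (1.53 to 2.23). *Cyp26b1* with *Stra6* gave 178 cells against 284, a ratio of 0.627 (0.538 to 0.726), and *Cyp26b1* with *Crabp1* a ratio of 0.553. *Aldh1a1* with *Crabp2* gave 0.517 (0.354 to 0.730) and *Aldh1a1* with *Rdh10* gave 0.609. The synthases *Aldh1a1* and *Aldh1a2* were seen together in 120 cells against 168, a ratio of 0.713 (0.591 to 0.853). When the product was taken within each cluster, some ratios came nearer to 1. They were 1.60 for *Stra6* with *Crabp1*, 1.31 for *Aldh1a2* with *Rarb* and 0.772 for *Cyp26b1* with *Stra6*. Others did not, such as *Aldh1a1* with *Aldh1a2* (0.705). *Aldh1a3* with *Stra6* gave 0.841 (0.385 to 1.60) over all cells and 0.694 within clusters, but rested on 9 cells against 10.7 from the product. Across cells the correlations were weak, with *r* between -0.09 and 0.14 in PC5. In PC20 the counting intervals of all 15 pairs of the 6 genes seen in at least 1% of thinned cells held 1. The highest ratio there was *Aldh1a1* with *Rarb*, 72 cells against 57.4 (1.25, 0.981 to 1.58). PC20 had fewer cells and fewer pairs, so this is not compared with the counts of pairs in PC5.

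The genes most correlated across thinned cells are listed by library, for genes seen in at least 5% of its thinned cells. Only *Aldh1a1*, *Aldh1a2* and *Crabp2* had a list in both libraries. The overlap of such lists was not measured for other genes, so no difference between the libraries is read from them. In PC5 *Aldh1a2* went with *Dcn* (*r* = 0.35), *Apod*, *Tgfbi* and *Lgi2*, and *Rarb* with *Tgfbi* (*r* = 0.15), *Aldh1a2*, *Il33*, *Apod* and *Lgi2*, so that *Tgfbi*, *Apod* and *Lgi2* were on both lists. *Cyp26b1* went with *Cavin2* (*r* = 0.25), *Amotl2*, *Cemip*, *Sorbs2* and *Akap12*. *Stra6* went with *Nrep* (*r* = 0.25), *Gxylt2*, *Clu*, *Trp53i11* and *Cthrc1*, and *Aldh1a1* with *Prss23* (*r* = 0.24), *Lox*, *Mgp* and *Anxa1*. *Rdh10* went with *Medag* (*r* = 0.20), *Igfbp4*, *Sox9*, *Scara5* and *Ccl2*, and *Crabp2* with *Igfbp4* (*r* = 0.23), *S100a10*, *Emp1*, *Cd55* and *Timp2*. In PC20 *Aldh1a1* went with *Ctla2a* (*r* = 0.28), *Ogn*, *Tmem176a*, *Tmsb4x* and *Sult1a1*. *Crabp2* went with *Bsg* (*r* = 0.21), *Ero1l*, *Hmox1*, *Aldoa* and *Hspa5*. For *Aldh1a2* in PC20 the best of 8997 genes, *Hnrnpab*, reached only *r* = 0.06. These correlations share a library and are across cells, over 8847 cells in PC5 and 4474 in PC20.

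Dividing cells held different amounts of some of these genes. Before thinning, cells with an *Mki67* or *Top2a* UMI, genes of proliferation, made up 45.0% of kept PC5 cells and 72.2% of kept PC20 cells. Those shares also depend on depth, which was greater in PC20. After thinning such cells were 3147 of 8847 in PC5 and 2575 of 4474 in PC20, and these are the cells compared next. In PC5 *Aldh1a2* was seen in 19.1% (17.8 to 20.5) of thinned cells with such a UMI and in 31.8% (30.6 to 33.1) of the others, and *Rarb* in 5.15% (4.40 to 5.98) and 8.26% (7.56 to 9.01). *Cyp26b1* went the other way, at 37.7% (36.0 to 39.4) and 31.3% (30.1 to 32.6). In PC20 *Crabp2* was seen in 77.9% (76.2 to 79.5) of dividing cells and 85.9% (84.2 to 87.4) of the others, and *Aldh1a1* in 25.7% (24.0 to 27.4) and 30.2% (28.1 to 32.3). The log2 ratios were also taken without the kept cells that had such a UMI before thinning. They were 2.02 for *Aldh1a2*, 6.29 for *Cyp26b1*, -4.37 for *Crabp2* and 7.44 for *Stra6*, so the direction of each was the one given above.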

How the data were processed

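Single-cell RNA sequencing of cultured mouse brain PCs was analysed, with 1 library of passage 5 (PC5) and 1 of passage 20 (PC20), grouped by title. The deposited values are UMI counts per gene and barcode, which the authors made with CellRanger v5.0.1 on mm10 from 10x 3′ v3.1 libraries, without normalization. Gene positions came from GENCODE on GRCm38 and promoter windows from RefSeq.

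Cells were filtered as in the paper. UMIs were summed over kept cells (223054273 in PC5, 191122251 in PC20) and scaled to CPM. The log2 ratio has no pseudocount, and genes detected in 1% or more of cells in either library were counted past 1 or -1. Intervals are exact Poisson, conditional binomial and Clopper-Pearson intervals at 95%. Cells were thinned at random to one depth. Clusters came from Seurat 5.3.0 (2000 variable genes, mitochondrial and ribosomal percentages regressed, 15 dimensions, resolution 0.8, at least 50 cells), and leading genes had at least 50 CPM and a UMI in 10% of the cluster's cells. No doublet caller was run. Leaving out the 5% of cells with the most UMIs stood in for it.

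The 9 genes and all lists were chosen with earlier results of these data known. Genes were named if they are among the 9, are pathway genes seen in at least 1% of thinned cells, or are the 5 best correlated with one of the 9 that was seen in at least 5%. Leading genes of clusters, markers, *Cyp26a1*, *Cyp26c1*, *Lrat* and *Bco2* are named outside that rule, after their values were seen. The lists are not independent: *Foxc1* is in the targets and the meningeal markers. The ratio and the thinning were tested on simulated libraries. Alternatives were other cell filters, thinning, scaling, weighting, detection, pseudocount, cluster settings, and cells without proliferation UMIs. The values of some genes that the naming rule covers are not reported here.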

Additional observations from a re-analysis of the deposited data

How the results depend on the processing

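No paired analysis was possible because each passage has 1 library. With a pseudocount of 1 on UMIs per 10000, 0 of the 9 genes lay above 1 and 1 (*Crabp2*) below -1, and of the other pathway genes 1 lay above 1 and 0 below -1. The pseudocount exceeds the mean of nearly all these genes, and over all genes 1.09% and 1.06% then passed. Under every other setting run for them, the counts of the 9 genes and of the other pathway genes past 1 or -1 stayed within 1.5 times. Over all genes, the count above 1 was 1880 in place of 3023 when detection in 10% of cells was asked for, with fewer genes tested (10504). The log2 ratio of *Crabp1* turned from -0.19 to 0.13 with cells weighted equally, 0.34 without cells with an *Mki67* or *Top2a* UMI and 0.0058 with the pseudocount, and the cause was not tested. No other ratio of the 9 genes changed sign, and single ratios of the other pathway genes were not recomputed. The highest cluster levels depended on the clustering: at resolution 0.4 the highest PC5 cluster held 102 CPM of *Aldh1a2* and 16.7 CPM of *Stra6*, against 155 and 54.5 CPM when the 9 genes were left out of the variable genes. *Crabp1* in its highest PC5 cluster ranged from 9.08 CPM (resolution 0.4) to 19.0 CPM (resolution 1.2), beside 19.5 CPM as reported. *Aldh1a1* ranged from 26.5 to 43.6 CPM in its highest PC5 cluster and from 63.1 to 119 CPM in its highest PC20 cluster. Leaving out the barcodes shared by both libraries was added after the data were seen and moved no log2 ratio or share of the 9 genes beyond its interval. Clusters, pairs and single pathway genes were not recomputed without them. Depth limits *Stra6* and *Aldh1a3* in PC20, which rest on 3 and 42 UMIs.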
